A study of Rattus norvegicus with 196 samples.

Results

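The ubiquitin and proteasome genes described here were 50 of the 29188 transcripts counted in rat brain. They were chosen by name from a table of the study that lists transcripts changed by fluoxetine in 2 or more brain regions. Names starting with the usual symbols of ubiquitin enzymes, ligase subunits, deubiquitinases and proteasome subunits were taken, except Otub1 and Trim28. The table was used here only in part, and 1845 names in that part matched a counted transcript. Because the table was built from these same samples, fluoxetine values of the members chose them, and they are given below as a description without a test. The members were 3 activating enzymes, 7 conjugating enzymes or variants, 10 RING or HECT ligases and 14 F-box proteins or cullins. The rest were 5 deubiquitinases, 6 members named as proteasome subunits and 5 adaptors with a UBX or UBA domain.

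RNA was sequenced from punches of 25 brain regions of male Long-Evans rats from Charles River, 2 months old at the start. The FT group drank fluoxetine, a serotonin reuptake inhibitor, at 18 mg/kg for 6 weeks, and the Sham group drank water. Each library pooled punches of 10 animals, 40 animals per group, so the spread between replicates is a spread between pools, and replicate numbers 1, 3, 4 and 5 each joined a FT and a Sham pool handled as a batch in the study. There were 98 FT and 98 Sham libraries. The regions named most below are the medial preoptic area (MPOA), the arcuate nucleus (Arc), the raphe (Raphe), the nucleus of the solitary tract (SNT), the locus coeruleus (LC), the cingulate (CGC), prelimbic (PLC) and infralimbic (ILC) cortex, the shell and core of the nucleus accumbens (NaCshell, NaCcore), the medial septum (MS), the bed nucleus of the stria terminalis (BNST), the ventromedial (VMH) and lateral (LH) hypothalamus, the basolateral amygdala (BLA), the habenula (HB), and PVN, given in the study as a thalamic nucleus. MPOA in FT and Arc in Sham held only replicates 4 and 5, and CGC was fitted without replicate 1. Total counts ran from 4586 (SNT, Sham replicate 3) to 50893913, with a median of 11921178, and members took a median of 0.41% of a library's counts. Punches hold many cell types, so a lower share of a cell type and less RNA per cell cannot be told apart.

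Ubiquitin is a small protein that cells attach to other proteins in a relay. An activating enzyme charges it, a conjugating enzyme carries it, and a ligase picks the substrate. Deubiquitinases take it off again, and the proteasome, a barrel of proteolytic subunits with a regulatory cap, degrades many of the tagged proteins. In neurons the pathway is known for turnover of synaptic proteins, and Ube3a is the ligase lost in Angelman syndrome.

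Promoter sequence was matched for 39 of the 50 members (RefSeq, build GRCr8). The 250 bases before the start of 5 members that the results below turn on are shown, 5′ to 3′ on the strand of the gene, with capitals marking GGGCGG (a GC box) and CCGGAAG (an ETS-type motif) on either strand. In Uba6 2 GC boxes overlap at the 3′ end.
Usp20 at chr3:34670435-34670684, plus strand: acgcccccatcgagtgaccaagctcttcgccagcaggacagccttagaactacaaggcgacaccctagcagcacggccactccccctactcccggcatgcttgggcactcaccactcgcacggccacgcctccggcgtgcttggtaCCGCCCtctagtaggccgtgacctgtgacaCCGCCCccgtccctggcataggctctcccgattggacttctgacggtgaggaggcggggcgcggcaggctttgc
Uba6 at chr14:22238582-22238831, plus strand: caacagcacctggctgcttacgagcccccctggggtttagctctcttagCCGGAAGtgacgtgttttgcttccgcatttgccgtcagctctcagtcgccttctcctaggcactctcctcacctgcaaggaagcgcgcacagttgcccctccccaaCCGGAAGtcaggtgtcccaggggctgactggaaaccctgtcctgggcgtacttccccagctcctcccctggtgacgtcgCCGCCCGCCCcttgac
Fbxo2 at chr5:163875829-163876078, plus strand: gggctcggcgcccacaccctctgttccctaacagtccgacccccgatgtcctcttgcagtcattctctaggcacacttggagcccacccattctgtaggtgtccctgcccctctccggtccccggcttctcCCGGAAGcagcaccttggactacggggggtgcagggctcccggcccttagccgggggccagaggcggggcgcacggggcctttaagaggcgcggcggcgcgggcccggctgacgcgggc
Ube2g2 at chr20:11005061-11005310, minus strand: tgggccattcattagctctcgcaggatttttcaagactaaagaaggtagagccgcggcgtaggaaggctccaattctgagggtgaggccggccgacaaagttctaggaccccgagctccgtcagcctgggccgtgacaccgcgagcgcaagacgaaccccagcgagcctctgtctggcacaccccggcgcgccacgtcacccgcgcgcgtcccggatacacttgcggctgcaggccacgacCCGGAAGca
Psmd10 at chrX:109453606-109453855, minus strand: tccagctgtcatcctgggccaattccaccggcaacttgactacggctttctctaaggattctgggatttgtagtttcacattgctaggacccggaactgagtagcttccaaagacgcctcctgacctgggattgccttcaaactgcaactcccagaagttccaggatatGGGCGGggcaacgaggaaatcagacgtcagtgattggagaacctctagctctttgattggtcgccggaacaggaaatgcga
GGGCGG was in 23 of 39 member promoters (59.0%), in 62.3% of 1318 promoters of transcripts named in the study's table and in 30.5% of all 33469. CCGGAAG was in 10 of 39 (25.6%), in 16.5% of the named and in 7.27% of all promoters. CCAAT was in 13 of 39 (33.3%) against 34.0% of all, CACGTG in 5 (12.8%) against 5.59%, and TATAAA in 2 (5.13%) against 12.9%. TGACTCAGC, the core of an antioxidant response element, was in none of the 39 windows against 0.376% of all promoters. These matches describe letters in a window and were not tested. The median number of CpG pairs was 19 in members, 17 in the named and 5 in all promoters.

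FT was compared with Sham in each region to ask how 6 weeks of fluoxetine moved each member. The fit was edgeR's quasi-likelihood test on counts with the replicate number as a block, and a call means a log2FC of at least 0.32 in size and an adjusted p (Benjamini-Hochberg, over the region's transcripts) no higher than 0.1. The log2 fold change (log2FC) is FT minus Sham. Of 1244 member and region combinations tested, 848 (68.2%) had a positive log2FC, against 50.8% for all transcripts and 58.6% for transcripts named in the study's table. The median log2FC was 0.33 in members, 0.01 in all transcripts and 0.18 in the named. Calls numbered 82 in 41 members, or 6.59% of combinations beside 1.93% of all transcripts and 6.35% of the named transcripts. Of these 59 were higher, beside 1.01% of all transcripts, and 23 lower, beside 0.913%. The members' share is near that of the named transcripts, and nothing is read from the count. No member was called in both directions.

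The calls fell in 5 regions. Arc held 38 (29 higher, 9 lower) beside 24.6% of all transcripts called there, MPOA 21 (14 and 7) beside 9.59%, Raphe 13 (9 and 4) beside 6.6%, SNT 9 (6 and 3) beside 4.16% and CGC 1 beside 0.465%. The other 20 regions had none by edgeR, with 11 to 30 members at an unadjusted p under 0.05 in each. Without MPOA and Arc, where only 2 pairs were complete, 23 calls were left. MPOA and Arc could not be fitted with replicate 4 or 5 left out, since too few pairs remained. Those settings are therefore to be read against the 23 calls of the other regions. There, 1 call was left without replicate 4 and 8 without replicate 5. A fit by edgeR without the replicate block made none, with 117 combinations at an unadjusted p under 0.05. Without the replicate 3 pair of SNT, SNT had no call by edgeR. DESeq2 called 206 combinations (170 higher, 36 lower), or 16.5%, in 24 regions and all 50 members, beside 1.99% of all transcripts. The study called its changed transcripts with DESeq2 and replicate numbers as batches, so these calls largely repeat the choice of members. The 1.99% is over 559355 combinations with no expression filter, against 334878 filtered ones for edgeR, so low-count transcripts dilute it. No DESeq2 share of the named transcripts is given here. Both tools called 46 combinations. The regional median log2FC of the members ran from 0.11 in SNT to 0.64 in Arc, and 29 to 38 members per region were positive.

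**Figure D1:**
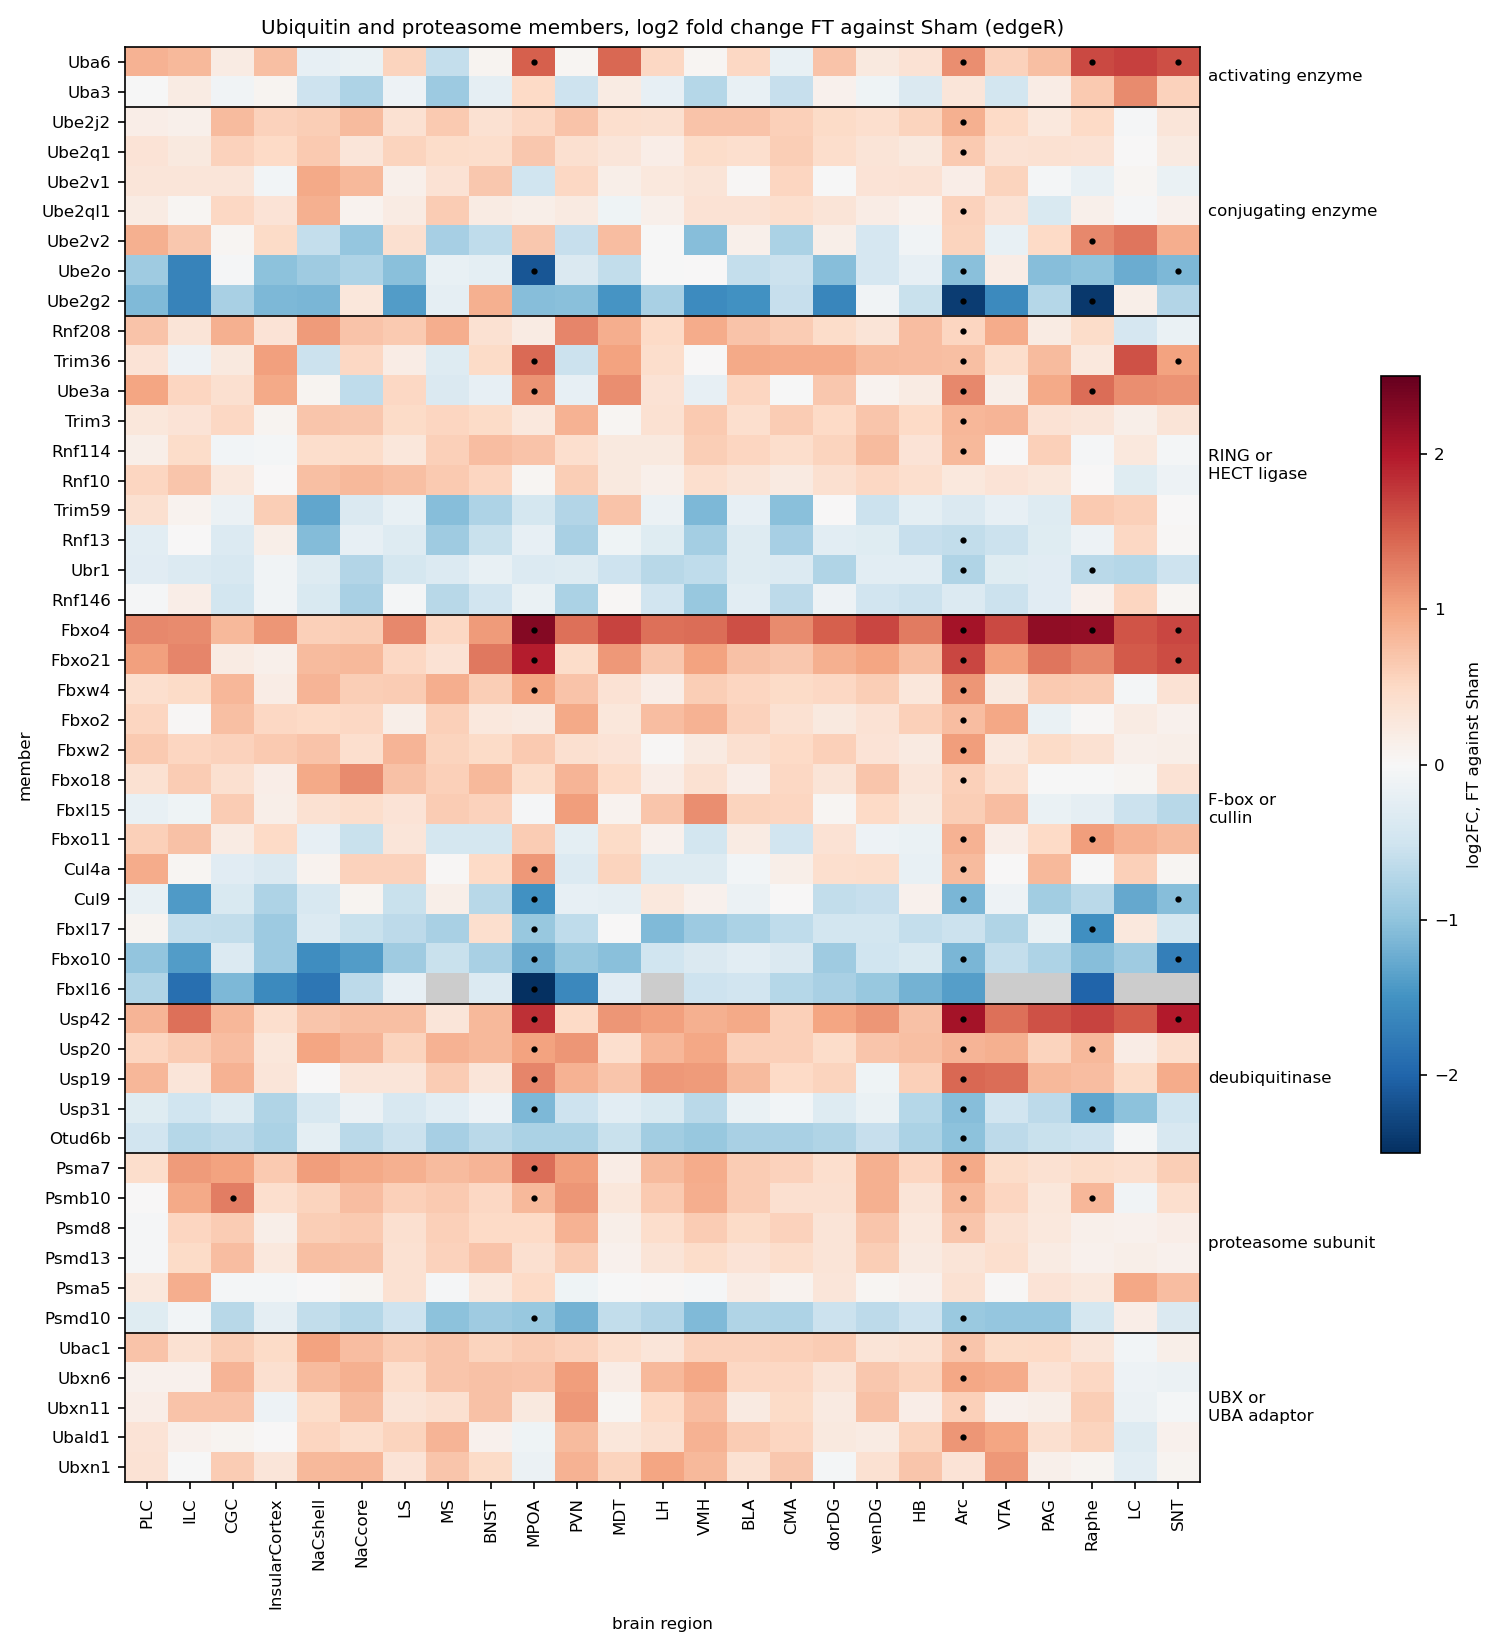
Log2FC of FT against Sham (colour) for 48 of the 50 members (rows, grouped by role) in 25 regions (columns), with dots on their 75 calls by edgeR and grey where a member was not tested. Red dominates in most rows, Fbxo4 and Usp42 are positive in every region, Ube2g2, Ube2o and Fbxl16 are mostly blue, and the dots sit in MPOA, Arc, Raphe, SNT and CGC.

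The activating enzymes stand at the head of the relay. Uba6, which charges ubiquitin, had a median log2FC of 0.56 over 25 regions, from -0.61 in MS to 1.71 in LC, and was called higher in 4 regions. Uba3, part of the enzyme that activates NEDD8, had a median of -0.11 and no call by edgeR, with 3 higher by DESeq2. In Raphe, Uba6 was at 28.0, 18.5, 96.9 and 152 CPM (counts scaled to the TMM-adjusted library size) in Sham replicates 1, 3, 4 and 5, and at 66.6, 39.0, 550 and 499 in FT. Each FT library was above the Sham library of its number, but FT replicates 1 and 3 lay below Sham replicates 4 and 5, so the groups overlapped. The log2FC there was 1.64 (SE 0.25).

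Among conjugating enzymes 109 of 175 combinations were positive, with a median of 0.19. There were 4 calls higher and 5 lower, or 5.14%, beside 1.93% of all transcripts and 6.35% of the named. Ube2g2, known from the degradation of endoplasmic reticulum proteins, had the lowest median of the 50 members (-1.07, from -2.42 in Raphe to 0.90 in BNST), and was called lower in Arc and Raphe. Its median ratios of FT to Sham were 0.36, -0.02, -0.64 and -2.22 in replicates 1, 3, 4 and 5. Its counts were low, with 8 and 6 in FT replicates 4 and 5 of Arc. In Raphe it was at 11.9, 10.4, 7.20 and 1.11 CPM in Sham and at 0.667, 10.3, 0.486 and 0.361 in FT. FT replicate 3 stayed at the level of its Sham partner, and the other 3 FT libraries were below every Sham library. Ube2o, a large enzyme with both conjugating and ligase activity, had a median of -0.77, was negative in 23 regions out of 25, with 3 calls lower. Ube2j2 (0.50) and Ube2q1 (0.39) were each called higher in Arc. Ube2v2, an inactive variant that partners another conjugating enzyme, had a median of 0.12 and ran from -1.06 in VMH to 1.34 in LC. In VMH it was at 361, 262, 265 and 192 CPM in Sham and at 47.6, 40.3, 361 and 364 in FT, so FT was lower in replicates 1 and 3 and higher in 4 and 5. Ube2v1 and Ube2v2 are near-identical in part, and how the counting split their reads is not known.

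RING and HECT ligases choose substrates. Of 250 combinations 149 were positive, with a median of 0.19. Calls were 9 higher and 3 lower, or 4.8%, beside 1.93% of all transcripts and 6.35% of the named. Ube3a had a median of 0.52 and was called higher in MPOA, Arc and Raphe. In Raphe it was at 60.8, 55.6, 152 and 233 CPM in Sham and at 145, 112, 706 and 539 in FT. The log2FC was 1.41 (SE 0.23), and each FT library was above its Sham partner. In NaCcore, by contrast, the log2FC was -0.63 (SE 0.40), with FT below Sham in 3 of 4 pairs. Rnf208 had a median of 0.64 and a peak of 1.22 in PVN, where Sham was at 45.8, 45.6, 20.0 and 56.5 CPM and FT at 139, 139, 63.0 and 55.2. FT was higher in replicates 1, 3 and 4 and level in 5. Trim3, a neuronal ligase, was positive in all 25 regions (median 0.49), and in PVN it stood at 53.6, 38.0, 45.8 and 65.0 CPM in Sham and at 132, 93.4, 70.7 and 80.9 in FT. Every FT library of Trim3 in PVN was above every Sham library. Ubr1, a ligase of the N-degron pathway, was negative in all 25 regions (median -0.35), and in Raphe it was at 19.8, 31.3, 23.6 and 29.8 CPM in Sham against 10.9, 24.4, 12.5 and 22.0 in FT. All 4 pairs were lower in FT, although the groups overlapped. Rnf13 and Rnf146 had medians of -0.30 and -0.35.

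F-box proteins and cullins build the SCF and other cullin ligases, in which the F-box protein holds the substrate. They held 29 of the 82 calls, 20 higher and 9 lower, or 8.43% of their combinations. The share was 1.93% of all transcripts and 6.35% of the named. Fbxo4 had the largest median of all members, 1.38, from 0.53 in MS to 2.30 in MPOA, and was called higher in 4 regions. Fbxo21 (0.99) was positive in all 25 regions. In Raphe Fbxo4 was at 2.72, 1.57, 2.95 and 5.85 CPM in Sham and at 4.73, 0.470, 49.8 and 32.6 in FT. The gain in Fbxo4 sat in replicates 4 and 5, and FT replicate 3 was below its partner. In this group 4 members had negative medians, Cul9 (-0.39), Fbxl17 (-0.60), Fbxo10 (-0.89) and Fbxl16 (-0.95). Without the replicate block the medians of Cul9 and Fbxl16 turned to 0.075 and 0.25. Cul9 had positive median ratios in replicates 1 and 3 (0.49 and 0.40) and negative ones in 4 and 5 (-0.39 and -1.37), and Fbxl16 was higher in FT in 19 of 23 regions in replicate 3 (median 0.49). In the blocked fit Fbxl16 was negative in all 19 regions where it was tested, and in MPOA it was at 0.560, 12.8, 1.42 and 1.19 CPM in Sham against 0.192 and 0.204 in FT replicates 4 and 5. Both FT libraries were below all Sham libraries, on counts of only 3 and 5.

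Deubiquitinases were split by member. Usp20 was positive in all 25 regions (median 0.74, from 0.19 in LC to 1.11 in PVN), all 4 pairs were higher in 18 of the 23 regions that had them, and DESeq2 called it higher in 15. In Raphe it was at 86.1, 68.2, 58.6 and 32.9 CPM in Sham and at 173, 86.9, 84.8 and 86.9 in FT. All pairs were higher in FT there, with FT replicate 1 the highest library and 1 FT value just under the highest Sham value. In NaCshell it was at 62.7, 54.8, 21.4 and 51.5 in Sham and at 165, 77.0, 64.5 and 72.6 in FT, with no overlap between the groups. Usp42 (0.96) and Usp19 (0.69) were positive in 25 and 24 regions. Usp31 (-0.40) and Otud6b (-0.68) were negative in all 25. By replicate number, however, Usp31 had median ratios of 0.24 and 0.15 in 1 and 3, with FT higher in 15 of 23 regions in each, and of -0.66 and -0.86 in 4 and 5. All 4 pairs were lower in 4 regions. Raphe was among these, where Usp31 was at 13.0, 7.84, 21.8 and 22.4 CPM in Sham and at 5.58, 6.11, 6.68 and 8.30 in FT. Only Sham replicate 3 lay within the FT range.

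Of the 6 members named as proteasome subunits, 5 had a positive median, all but the assembly chaperone Psmd10. Psma7, an alpha ring subunit of the core, was positive in all 25 regions (median 0.78), and edgeR called it higher in MPOA and Arc while DESeq2 did so in 12 regions. In NaCshell Psma7 was at 499, 553, 102 and 257 CPM in Sham and at 648, 890, 434 and 553 in FT. Each FT library was above its partner, although the groups overlapped. Psmb10, an inducible catalytic subunit, had a median of 0.61, and in CGC, without replicate 1, it went from 16.7, 20.4 and 31.0 CPM in Sham to 40.1, 57.1 and 69.3 in FT (log2FC 1.27, SE 0.24). The 3 FT libraries were above the 3 Sham libraries, whereas in the replicate 1 pair left out of the fit Psmb10 was at 47.2 CPM in Sham and 36.8 in FT. Psmd8 (0.48) and Psmd13 (0.39), both of the regulatory cap, and Psma5 (0.11), another alpha subunit, had smaller medians. Psmd10, the assembly chaperone gankyrin, was negative in 24 of 25 regions (median -0.69), and in PVN it went from 17.7, 11.3, 30.8 and 14.8 CPM in Sham to 9.88, 4.40, 9.90 and 7.86 in FT, with no overlap. Proteasome members had 7 calls higher and 2 lower, or 6.0%, beside 1.93% of all transcripts and 6.35% of the named.

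The adaptors with UBX or UBA domains, some of them cofactors of the segregase p97, had a positive log2FC in 113 of 125 combinations (median 0.50). By edgeR 4 were called higher and none lower, or 3.2%, beside 1.93% of all transcripts and 6.35% of the named. By DESeq2 23 were called higher and none lower, or 18.4%, beside 1.99% of all transcripts without an expression filter. Ubac1, a partner of a ubiquitin ligase, was positive in 24 regions, and in NaCshell it went from 37.4, 27.1, 28.2 and 27.5 CPM in Sham to 91.9, 55.2, 50.4 and 52.0 in FT. All 4 FT libraries were above all 4 Sham libraries. Ubxn6 in PVN went from 42.5, 58.8, 20.1 and 30.4 CPM to 109, 138, 37.6 and 49.7, higher in all 4 pairs with overlapping groups.

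**Figure D2:**
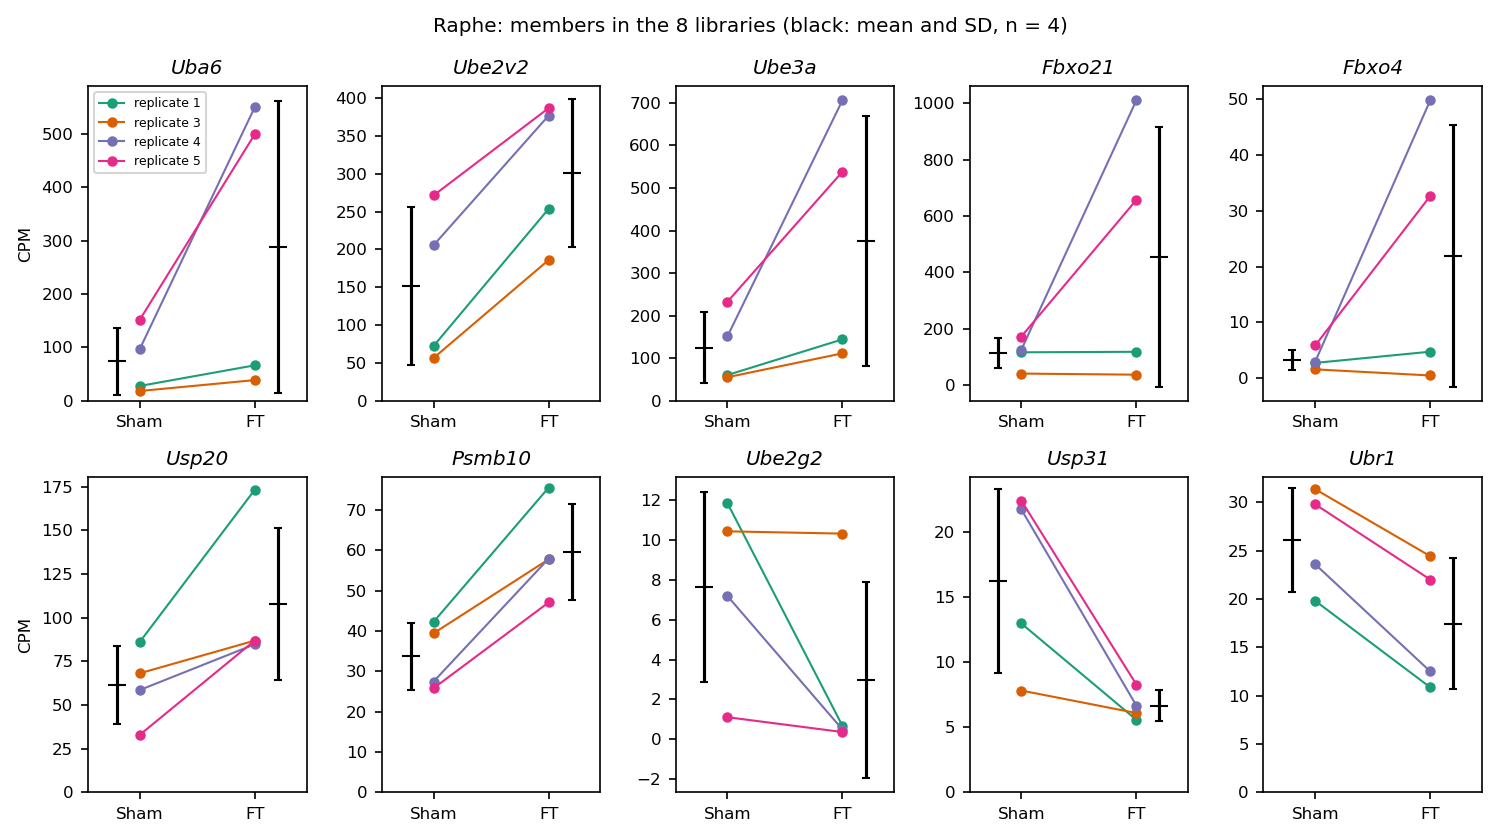
CPM of 10 members in the 8 Raphe libraries, with a line joining the Sham and FT library of each replicate number, and the mean and SD (n = 4) in black. Uba6, Ube3a, Fbxo21 and Fbxo4 gain most in replicates 4 and 5, while Usp20 and Psmb10 lie higher in FT, and Ubr1 and Usp31 lower, in all 4 pairs.

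The FT difference was not alike in the 4 replicate numbers. The median log2 ratio of FT to Sham over members and regions was 0.18, 0.20, 0.40 and 0.48 in replicates 1, 3, 4 and 5, and 57.5%, 61.2%, 67.8% and 72.7% of the ratios were positive. For all transcripts these shares were 49.5%, 55.5%, 52.2% and 52.2%. Fbxo4 had median ratios of 0.15, -0.06, 1.90 and 2.36, and was higher in 13 of 23, 10 of 23, 25 of 25 and 25 of 25 regions. Fbxo21 had 0.19, 0.048, 1.22 and 1.93, and Usp42 -0.45, 0.10, 1.59 and 2.20. Ube2o went the other way, with 0.10, 0.21, -0.98 and -1.57. By a limit chosen after the values were seen (the mean of the median ratios over 0.5 in replicates 4 and 5 and under 0.2 in 1 and 3, or the mirror image), 12 members were higher mainly in replicates 4 and 5 and 6 were lower mainly there. Other members had a median of 1 sign in all 4 replicate numbers, though of unequal size. Usp20 had 0.69, 0.46, 1.08 and 0.64, Trim3 0.48, 0.56, 0.45 and 0.66, and Ubac1 0.67, 0.36, 0.55 and 0.58. In all, 23 members had a positive median in each of the 4 replicate numbers and 6 a negative one. A further 8 had positive medians in replicates 4 and 5 and negative ones in 1 and 3, and 3 had the mirror image. Among those 8, Ube3a had -0.38, -0.28, 0.79 and 1.29, and Uba6 -0.46, -0.16, 0.81 and 1.55.

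**Figure D3:**
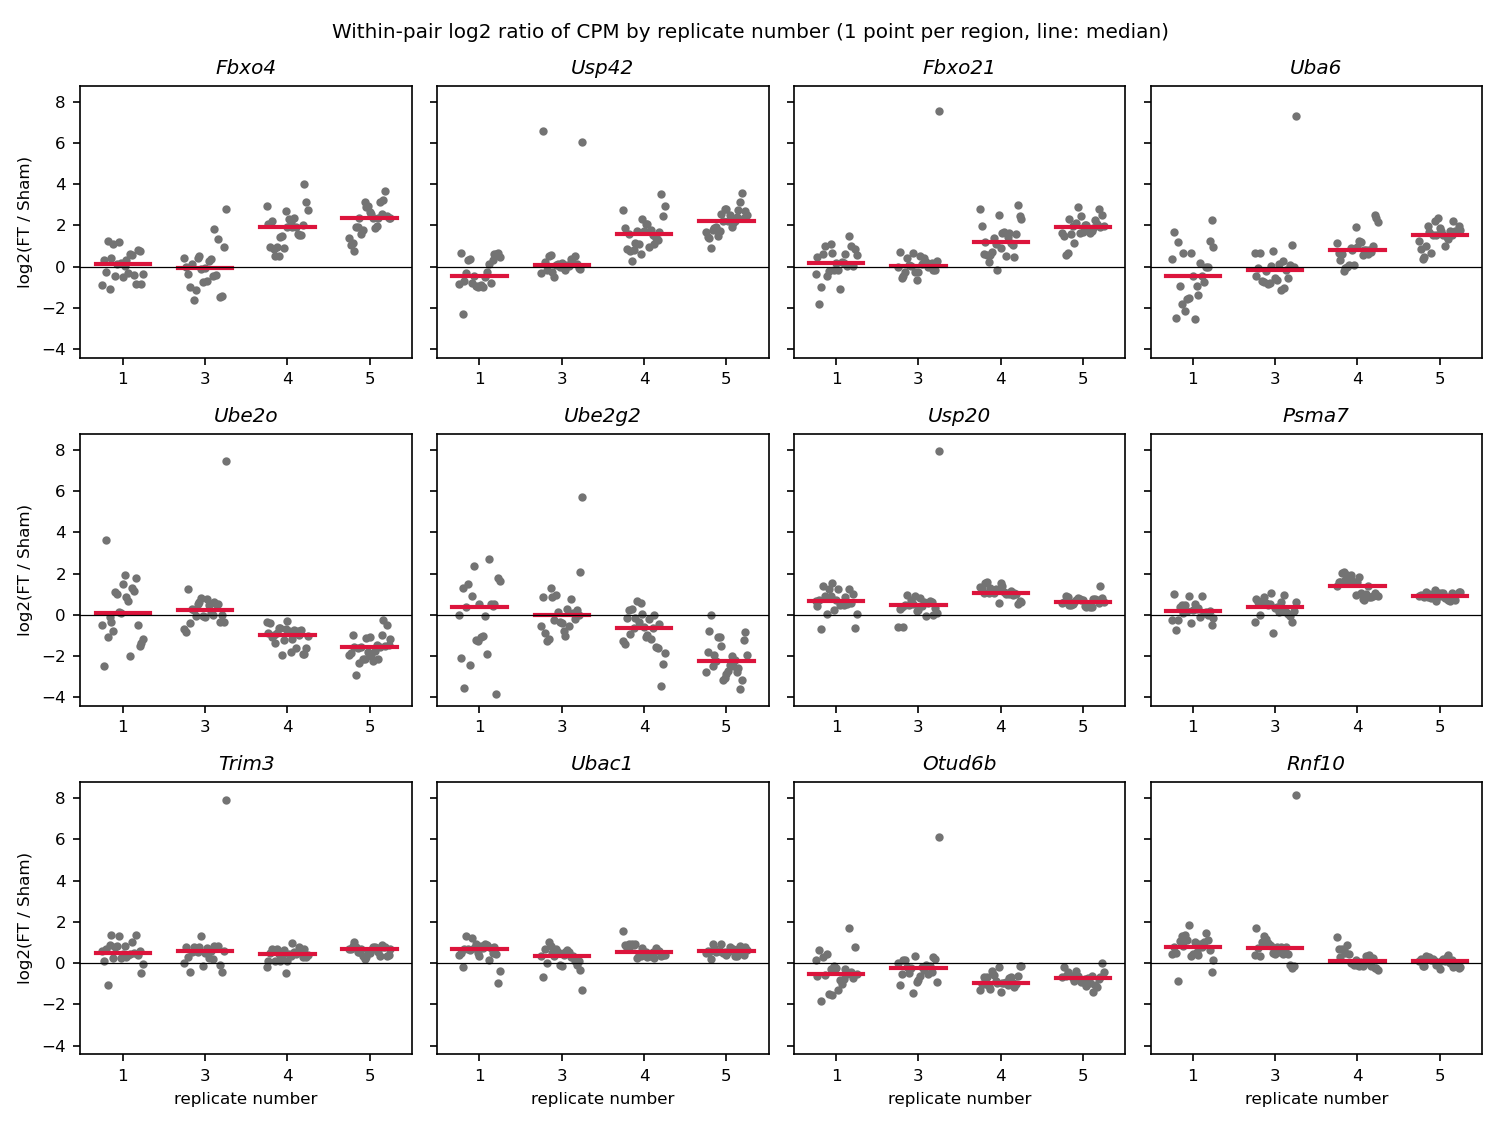
Log2 ratio of FT to Sham CPM within each replicate number (x axis) for 12 members, with a point per region and the median as a red line. Fbxo4, Usp42, Fbxo21 and Uba6 have medians above 0 in replicates 4 and 5. In replicates 1 and 3 Fbxo4 and Fbxo21 have medians near 0, Usp42 -0.45 and 0.10, and Uba6 -0.46 and -0.16. Ube2o and Ube2g2 lie below 0 in 4 and 5, and Usp20, Trim3 and Ubac1 have medians above 0 in all 4. The far points in replicate 3 are SNT, whose Sham library had 4586 counts, and for Usp42 also ILC.

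Technical and marker values moved with the replicate number as well. In Sham replicates 1, 3, 4 and 5 the 50 most counted transcripts took a median of 37.5%, 68.6%, 30.9% and 28.2% of counts. Reads outside any feature were 25.6%, 39.2%, 41.1% and 46.9% there. In Sham, 9 members were over 2-fold higher in replicates 4 and 5 than in 1 and 3, and 13 over 2-fold lower. Of the 12 members higher mainly in replicates 4 and 5, 11 had a higher Sham level there. Of the 6 lower mainly there, 5 had a lower one. Over all 50 members the relation was weak. The Spearman correlation of this Sham level difference with the mean ratio in replicates 4 and 5 was 0.22. With the mean ratio in replicates 1 and 3 it was -0.64. The share of reads outside any feature, FT minus Sham, had a median of -3.77, 0.16, 4.97 and -2.14 percentage points in replicates 1, 3, 4 and 5. Summed neuron markers (8 genes) had a median log2 ratio of 0.30, 0.55, -0.08 and -0.04, astrocyte markers (5 genes) 0.26, 0.63, -0.30 and 0.20, microglia markers (4 genes) 0.31, 0.40, -0.16 and -0.24, oligodendrocyte markers (11 genes) -0.01, -0.04, -0.34 and 0.00, vascular markers (4 genes) -0.29, 0.19, -0.18 and -0.19 and choroid plexus markers (3 genes) 0.01, -0.21, -1.12 and -0.38. No marker was at 0 in an area compared below. The marker genes were also taken from the study's table of transcripts changed by fluoxetine. Their FT to Sham sums are therefore no independent measure of cell type shares. The part of these technical and marker measures in the FT values was not tested.

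Other genes of the pathway, 54 from the same table of the study, gave 713 positive of 1336 combinations (53.4%, beside 58.6% of the named transcripts). Their median log2FC was 0.08. They had 55 calls higher and 46 lower, or 7.56%, beside 1.93% of all transcripts and 6.35% of the named. UBB, a gene for ubiquitin itself, had a median of 0.90 and was positive in 24 of 25 regions, whereas Rps27a, which makes a fusion of ubiquitin and a ribosomal protein, had -0.38 and was positive in 2. Skp1, the adaptor that joins F-box proteins to the cullin, had -0.63, with 1 call lower from edgeR and 12 from DESeq2. Tceb2, elongin B, had 0.73 with 3 and 14 calls higher. Chaperones, 22 from the table, had 374 positive of 550 combinations (68.0%, median 0.32), with Dnajb2, a neuronal co-chaperone, at 0.79. Their calls were 29 higher and 12 lower, or 7.45%, beside the same 1.93% of all and 6.35% of the named transcripts. Nothing is read from either count. All of these genes were chosen by the study on these samples, so their direction is no independent evidence.

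Levels between regions did not choose the members and could be tested. In Sham, 4 area contrasts against cortex (PLC, ILC, CGC, InsularCortex) were fitted by edgeR over all transcripts with a block for replicate number, and a call means a log2FC of at least 1 in size with an adjusted p of at most 0.05. The FT samples, from other animals, gave the same contrasts again. Each treatment had 4 pools, each of which gave libraries of many regions, so the regions of a replicate number are not independent samples and the p-values measure the spread of regions within 4 pools. Hindbrain (Raphe, LC, SNT) differed from cortex in 4 of 50 members, 3 higher and 1 lower, beside 26.3% of all transcripts. Hypothalamus (MPOA, LH, VMH, Arc) differed in 3, all lower, beside 16.7%, and accumbens (NaCshell, NaCcore) in 1 beside 8.75%. Dentate gyrus (dorDG, venDG) differed in none by edgeR beside 8.84%, with 13 members at an unadjusted p under 0.05 and none by DESeq2. At a fold threshold lowered to a log2FC of 0.32, 35 members in hindbrain, 14 in hypothalamus, 4 in accumbens and 4 in dentate gyrus were called, beside 54.1%, 39.4%, 19.5% and 20.8%. At a log2FC of 1 the members' shares were below those of all transcripts in all 4 contrasts, whereas at the lowered threshold the share in hindbrain was above and the other 3 were below. The median size of log2FC in members and in all transcripts was 0.51 and 0.55 in hindbrain, 0.19 and 0.37 in hypothalamus, 0.18 and 0.28 in accumbens and 0.16 and 0.29 in dentate gyrus. Of the transcripts named in the study's table, 27.9%, 14.4%, 7.32% and 6.88% were called in these areas in that order. Their median sizes were 0.62, 0.34, 0.24 and 0.26.

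Fbxo2, a neuronal F-box protein that binds glycoproteins, was higher in hindbrain by a log2FC of 1.92 (SE 0.18, edgeR adjusted p = 8.4e-16). Its mean over the cortical regions was 52.4, 127, 18.4 and 11.8 CPM in Sham replicates 1, 3, 4 and 5, against 167, 340, 73.6 and 52.5 in hindbrain, higher in 4 of 4. The cortical mean of replicate 1 was raised by ILC, at 109 CPM against 26.4 in PLC and 21.9 in InsularCortex. In FT the log2FC was 1.64 (adjusted p = 4.3e-16). By region, centred on each replicate's median region, SNT stood at 2.01 (SD 0.10) and Raphe at 1.92 (SD 0.44) on the log2 scale and BLA at -0.73 (SD 0.17). Fbxl16 was lower by 3.62 on the log2 scale in hindbrain (log2FC -3.62, SE 0.41, adjusted p = 3.7e-12) and by a log2FC of -2.70 (SE 0.35, adjusted p = 4.0e-10) in hypothalamus. Its cortical means of 47.0, 34.2, 2.23 and 2.84 CPM stood against 0.679, 3.32, 0.588 and 0.469 in hindbrain, so levels in cortex differed widely between replicates. In FT the same contrasts were -2.87 and -1.87 and both were called.

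Trim59, a RING ligase, was higher in hindbrain by 1.05 (SE 0.19, adjusted p = 3.3e-06) and in accumbens by 1.17 (SE 0.21, adjusted p = 8.0e-06), with cortical means of 5.47, 4.51, 18.1 and 9.49 CPM and accumbens means of 17.1, 10.2, 33.5 and 21.0. In FT the hindbrain difference was 1.08, whereas that in accumbens was -0.03 (adjusted p = 0.967), and the change between treatments was not tested. Ubxn1, a p97 cofactor, was higher in hindbrain by 1.12 (SE 0.16, adjusted p = 1.2e-08), with 0.80 in FT, short of a fold of 2. In hypothalamus Cul9 was lower by a log2FC of -1.06 (SE 0.24, adjusted p = 1.4e-04) and Usp31 by -1.03 (SE 0.12, adjusted p = 2.0e-11), with -0.49 and -1.33 in FT. Without replicate 1, Trim59 in hindbrain (0.93) and accumbens (0.97), Ubxn1 (0.94), Cul9 (-0.70) and Usp31 (-0.90) came to a log2FC under 1 in size and lost the call. Trim59 in hindbrain also lost it without replicate 5 (0.79) and Cul9 without replicate 3 (-0.87). In Sham replicate 1, ILC was at 72.7 CPM for Cul9, against 5.57 in PLC and 7.18 in InsularCortex. For Ubxn1 it was at 103, against 26.4 and 38.1, whereas for Usp31 it was at 22.8, near 18.5 and 21.1. The part of this library in the lost calls was not tested. Without the replicate block, edgeR gave Fbxo2 1.43 (adjusted p = 0.063) and Ubxn1 0.95 (adjusted p = 0.227) in hindbrain.

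Marker sums also differed between these areas. Choroid plexus markers summed to 1180 to 36471 CPM in Sham hindbrain against 8.90 to 16.3 in cortex, and oligodendrocyte markers to 961 to 1636 against 377 to 858. Neuron markers (3047 to 7424 against 3879 to 5949) and astrocyte markers (561 to 14129 against 438 to 8477) overlapped. Their means were 5020 against 4860 and 4150 against 2832. The ranges run over 4 replicate numbers, so an overlap does not show like levels within a replicate number. In hypothalamus oligodendrocyte markers (881 to 1269) lay above cortex, and neuron markers (2122 to 4894) overlapped with it. In accumbens neuron markers (2032 to 3809) lay below cortex, and oligodendrocyte markers (705 to 1581) overlapped. Their part in the contrasts was not tested. Of the 50 members, 40 in hindbrain, 38 in hypothalamus, 27 in accumbens and 37 in dentate gyrus had the same sign in FT as in Sham, and the members called in both numbered 3, 2, 0 and 0. FT alone gave 7 calls in hindbrain beside 20.8% of all transcripts, 2 in hypothalamus beside 15.9%, 1 in accumbens beside 9.22% and none in dentate gyrus beside 7.61%. Uba6 (1.50), Trim36 (1.43), Ubxn11 (-1.13) and Usp31 (-1.12) in hindbrain and Ube2v2 (-1.48) in accumbens passed in FT and not in Sham, and those differences were not tested.

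**Figure D4:**
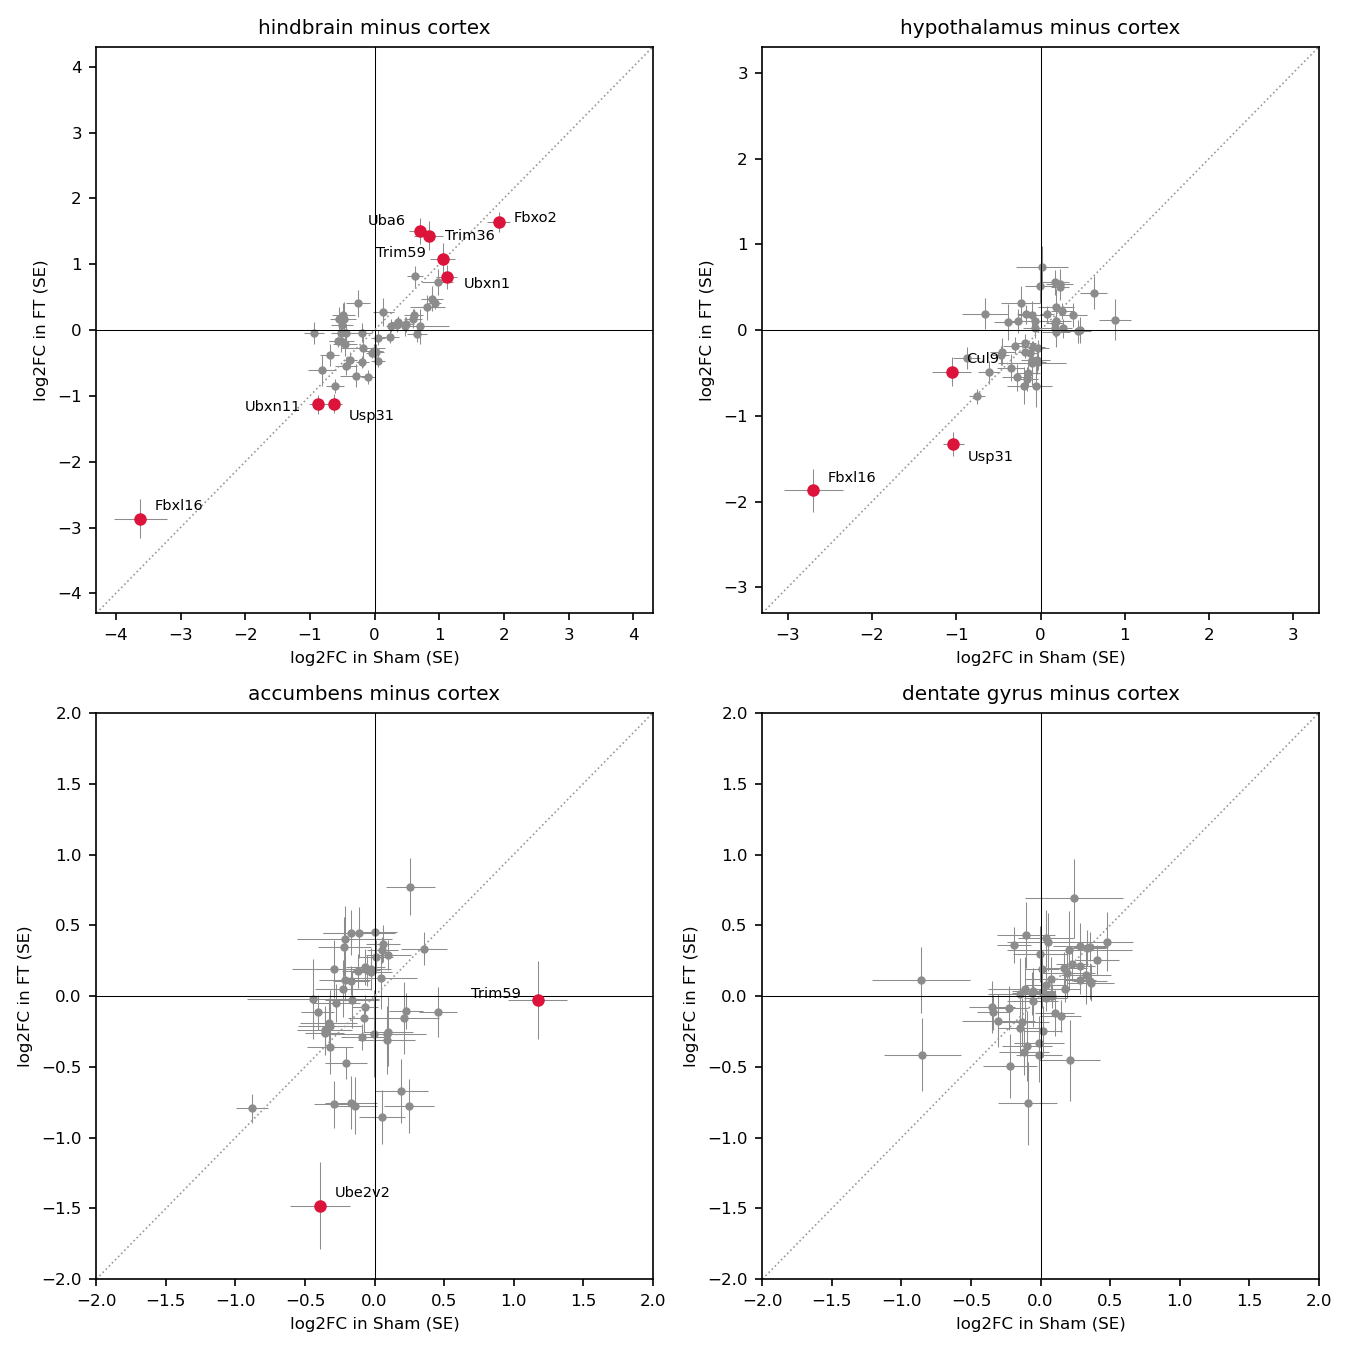
Log2FC of each member against cortex in Sham (x axis) and FT (y axis), with SE bars, for 4 areas. Red points with names were called in Sham or FT, the dotted line marks equal values, and Fbxl16 and Fbxo2 lie far out in hindbrain on the same side in both.

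**Figure D5:**
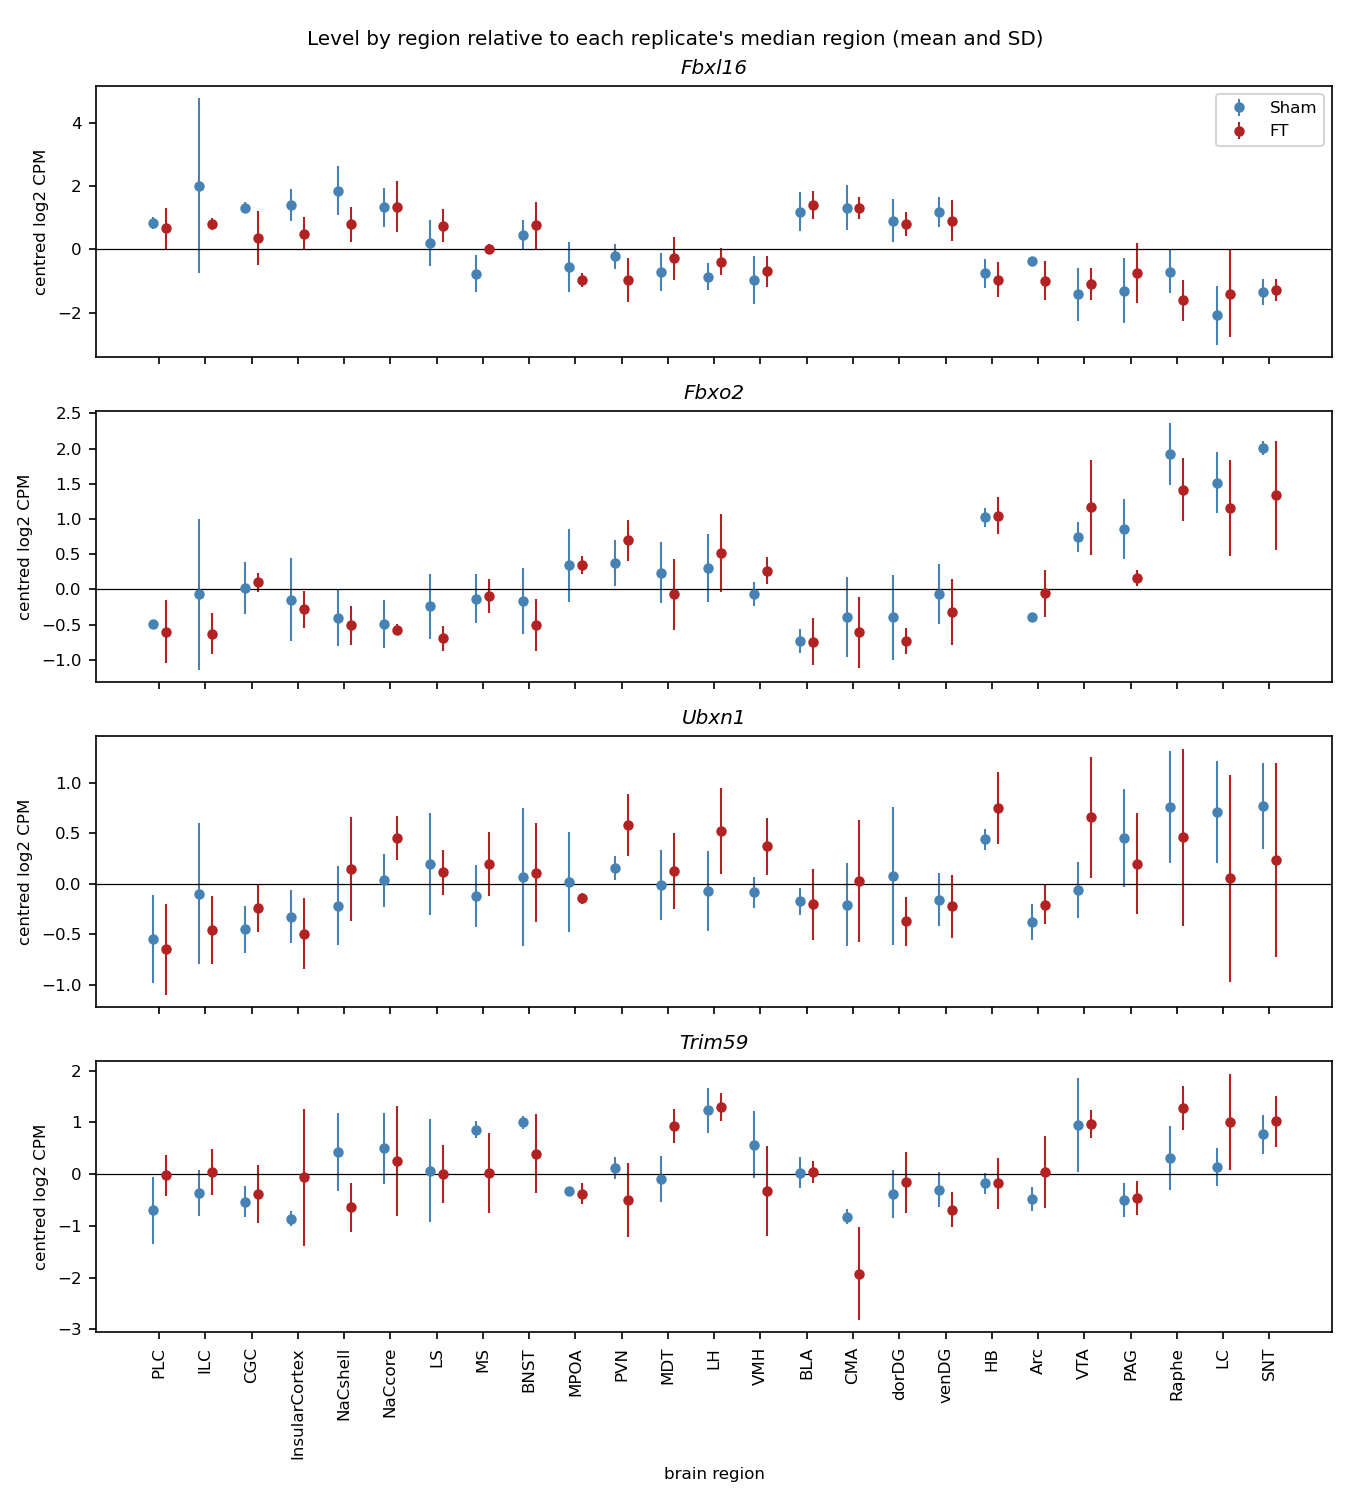
Level by region of 4 members on the log2 scale, relative to each replicate's median region, as mean and SD for Sham (blue) and FT (red). Fbxo2 is highest in SNT, Raphe and LC, Fbxl16 is low from HB to SNT, and the wide bar of Fbxl16 in ILC includes a library of 543403 counts.

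The span between regions, given as a description without a test, was smaller in members than in transcripts in general. The median difference between a member's highest and lowest region in Sham was 1.30 on the log2 scale, against 1.79 for all transcripts tested, and 39 of 50 members lay below that value. In FT the medians were 1.15 and 1.52, with 36 of 50 below. No span of the named transcripts is given here. Fbxl16 had the widest span in Sham (4.09), followed by Fbxo2 (2.75), and Ube2q1 the narrowest (0.58). Several spans rest on ILC, whose Sham replicate 3 library had 543403 counts.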

How the data were processed

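Libraries were made from pooled punches with a stranded total RNA kit and sequenced as 76 bp read pairs, while GEO gives the molecule as polyA RNA. Per the labels, the authors aligned to rn5 with STAR and counted with HTSeq, and the deposited values are raw counts per transcript (unit: counts, not normalized). Reads outside any feature (18.7 to 77.1% of a file) were left out of totals. FT was compared with Sham per region with edgeR 4.0.16 (R 4.3.3, TMM, default expression filter, quasi-likelihood test, replicate block), and DESeq2 1.42.0 was an alternative. DESeq2 was also the study's own tool for this comparison. CPM are TMM scaled within the region, and ratios used a prior count of 2. The Sham and FT area contrasts came from 1 joint fit each, without the SNT library of replicate 3 and the CGC library of replicate 1. Replicate numbers pair the samples as batches in the study's methods. Deviations of same-numbered samples correlated with a median r of 0.65 (-0.10 to 0.86), over 0.1 in 92 of 95 pairs. The scripts were tested on simulated data. Named members were those with calls in the most regions (8 per direction), all proteasome subunits, the largest call in each of the 5 regions with most calls, and the 3 highest and 3 lowest called in each area contrast. Others were named after their values were seen. Of the members, 2 are in the counts and medians over members but are not reported singly here. The members and lists were chosen with earlier results of these data known. P-values measure the spread between pools, and in the area contrasts that of regions within 4 pools. Regions dorCA1 and venCA1 were not analysed here.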

Additional observations from a re-analysis of the deposited data

Results flagged for a closer look

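Single libraries stood far from the other 3 of their group, by Dixon's test at 95%, in 7 of 57 groups of 4 libraries. Chance flags about 1 in 20 groups if the libraries are alike, but levels here shifted with the replicate number. The count of flags therefore cannot be set against that rate. Usp20 was at 173 CPM in FT replicate 1 of Raphe and at 165 CPM in FT replicate 1 of NaCshell. Ubac1 in NaCshell was at 37.4 CPM in Sham replicate 1 and at 91.9 CPM in FT replicate 1, so both libraries of that pair were high. Ube2g2 was at 10.3 CPM in FT replicate 3 of Raphe, the only FT library there near its Sham level. In MPOA, Sham replicate 3 was at 12.8 CPM for Fbxl16 and at 45.7 CPM for Fbxo10. Fbxo10 was highest in replicate 3 elsewhere too, at 19.2 CPM in Sham and 27.4 in FT of LC. In PAG it was at 33.5 and 35.0 there, so its flag is not particular to the MPOA library.

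Among the 23 regions with 4 pairs, all FT libraries of 5 members lay above their Sham partners in some regions and all below in others, and the difference between regions was not tested. Rnf10 was higher in all pairs in 11 regions and lower in 1. Ube2ql1 was higher in 10 and lower in 1. Cul4a was higher in 2 and lower in 1. Rnf13 was higher in 1 and lower in 7. Trim59 was higher in 1 and lower in 6.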

How the results depend on the processing

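For FT against Sham, the 82 member calls by edgeR became 206 with DESeq2, 246 without a low-count filter, and 23 without MPOA and Arc, a setting chosen after seeing the data. Leaving out 1 replicate number in turn gave 1 to 104 calls (1 without replicate 4 and 8 without replicate 5). Without replicate 4 or 5, MPOA and Arc could not be fitted, so the 1 and the 8 stand against 23 calls and not 82. Without the replicate block edgeR made 0 calls, with 117 of 1244 combinations at an unadjusted p under 0.05. With median-ratio size factors, all 8 CGC samples, SNT without its replicate 3 pair or an adjusted p of 0.05, the count was 55 to 86. The median within-pair log2 ratio was 0.31, and 0.26 to 0.31 with another prior count or with library totals alone. Cul9's median log2FC turned to 0.075 without the block and ran from -0.70 to 0.045 with a replicate left out, Fbxl16's turned to 0.25 without the block, and Psma5's ran from -0.062 to 0.22 with a replicate left out. The causes were not tested.

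In the Sham contrasts, hindbrain had 4 to 9 member calls and dentate gyrus 0 to 1 with a replicate left out, and hypothalamus 1 to 4. Accumbens had 1 each time, but without replicate 1 it was a lower call in place of Trim59. In FT, hindbrain had 7 and Trim59 in accumbens was at -0.027. With the log2FC threshold lowered, the counts were 35 in hindbrain, 4 in dentate gyrus, 14 in hypothalamus and 4 in accumbens. Leaving out the ILC Sham library of replicate 3, added after seeing the data, changed none of the 4 counts. The ILC Sham library of replicate 1 was not left out alone. Depth limits the values of the SNT Sham library of replicate 3, with 4586 counts, most.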
